A study of Mus musculus with 24 samples.

Results

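The 5' end variants of miRNAs were followed in newly made small RNA of mouse 3T9 cells, an immortalised line of embryo fibroblasts. The deposited table has a templated and a non-templated 5' row per miRNA, and no source defines these classes. From their names, a 5' variant is read here as a miRNA with extra bases before its annotated 5' end, which either continue the hairpin sequence (templated) or do not match it (non-templated). The rows studied here belong to mature miRNAs with at least 1000 counts summed over the 21 labelled libraries, which holds for 248 of 1221 mature names. These miRNAs had 333 such rows, 182 templated and 151 non-templated, of 688 5' rows and 7128 rows in all. A 5' row was present for 210 of the 248 miRNAs, and 195 had a 5' variant count above 0 in a labelled library. The 5' variant share is the count of a 5' row, or of both together, as a percentage of all counts of the same miRNA in the same library.

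The 5' end of a miRNA decides which targets it reads, because the seed, bases 2 to 8, is counted from it. Drosha cuts the primary transcript and so sets the 5' end of the 5p arm, while Dicer cuts the precursor and sets the 5' end of the 3p arm. An extra base at the 5' end moves the seed toward the 5' side and gives the same arm another set of possible targets.

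Cells received 300 µM 4-thiouridine (4SU), a uridine analogue that marks RNA made during the 3 h pulse, and were then chased in 1 mM uridine. RNA that carried 4SU was coupled to biotin, pulled out with streptavidin beads and sequenced as small RNA after 0, 2, 4, 6, 8, 10 and 12 h of chase in 3 experiments, which gave 21 labelled libraries. There was 1 library each of total RNA from untreated cells, of total RNA from cells given 4SU, and of an extraction done on untreated cells (the negative extraction). Labelled libraries held 1133048 to 7886484 miRNA counts, with a median of 3019171, and the negative extraction held 283922. A code in the table's second header line, which the labels do not explain, was shared by experiment 1 and the negative extraction, differed for experiments 2 and 3, and was again different for both total RNA libraries. The 6 fibroblast marker miRNAs summed to between 110097 and 219556 CPM (counts scaled to a common library total), with none at 0 in any labelled library. The 6 blood markers summed to 185 to 734 CPM, nearly all from miR-486a-5p, and the 6 epithelial markers to 201 to 1151 CPM, nearly all from miR-205-5p. Both the 3 muscle markers (1.77 to 22.1 CPM) and the liver marker miR-122-5p (0 to 2.04 CPM) were lower. miR-124-3p, a neural marker, had no row in the table, and the other 3 neural markers summed to 399 to 610 CPM.

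The mature sequences below show, for the miRNAs with the largest 5' variant shares, which seed the annotated 5' end gives. They are from RefSeq (build GRCm38.p6) and are written 5' to 3' with bases 2 to 8 in capitals. Sequences were found for 204 of the 248 names.
miR-1843b-3p: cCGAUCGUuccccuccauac
miR-3074-2-3p: uGUUUCAGcucaguaggcac
miR-365-2-5p: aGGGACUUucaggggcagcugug
miR-1843b-5p: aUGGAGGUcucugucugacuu
miR-214-3p: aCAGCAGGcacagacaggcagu
miR-335-3p: uUUUUCAUuauugcuccugacc
miR-423-3p: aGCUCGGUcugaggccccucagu
miR-29a-3p: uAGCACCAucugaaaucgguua
miR-1843a-5p: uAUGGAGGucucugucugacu
The deposited rows do not say how many bases a variant adds. For the miRNAs on which the comparisons below turn, the form that is longer by 1 templated base is shown as an illustration, again with bases 2 to 8 in capitals.
miR-365-2-5p plus 1 base: gAGGGACUuucaggggcagcugug
miR-1843b-5p plus 1 base: cAUGGAGGucucugucugacuu
miR-29a-3p plus 1 base: cUAGCACCaucugaaaucgguua
miR-106b-3p, annotated: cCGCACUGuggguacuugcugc
miR-106b-3p plus 1 base: aCCGCACUguggguacuugcugc
miR-671-3p, annotated: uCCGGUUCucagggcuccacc
miR-671-3p plus 1 base: cUCCGGUUcucagggcuccacc
Seeds were compared only with the RefSeq set, which held 1679 mature names and lacks some names of the deposited table. The annotated seed of miR-29a-3p is also that of miR-29b-3p and miR-29c-3p, and the form longer by 1 base shares its seed with no miRNA in that set. The form of miR-1843b-5p longer by 1 base has the annotated seed of miR-1843a-5p. Over the 178 miRNAs whose upstream base could be read, 29 (16.3%) gave, after a shift of 1 base, the annotated seed of another miRNA in the RefSeq set. Among the 23 of them with a share of 1% or more it was 4 (17.4%).

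Across the 248 miRNAs 5' variants were rare. The median miRNA had a share of 0.0374%, 84 had at least 0.1% and 33 (13.3%) had at least 1%, taken as the mean of the 21 labelled libraries. Of 126 5p arms 12 (9.52%) reached 1%, with a median of 0.0249%, and of 117 3p arms 18 (15.4%) did, with a median of 0.0550%. Another 5 names carried no arm. The upstream base was G for 2 of 23 miRNAs with a share of 1% or more (8.7%) and for 61 of 155 below 1% (39.4%). C stood there in 9 of 23 (39.1%) and 45 of 155 (29.0%). These are descriptions of miRNAs chosen by their share, and no test was made of them. Summed over the 248 miRNAs, 5' variants made up 0.365 to 0.482% of their counts in a labelled library.

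Ranked by their mean share, the top 12 miRNAs fell into 3 that were nearly all 5' variant, 1 near 80% and 8 between 6 and 40%. The share chose these miRNAs, so the values that follow describe them. miR-1843b-3p, from a hairpin at chr1:159340358-159340423 (all positions are GRCm38) that lies in an intron of Cop1 and overlaps the small Cajal body RNA gene Scarna3a, had all of its 1246 counts in 5' rows. miR-486b-3p, from a hairpin known for its red-cell expression, had a mean share of 99.99%, of which 56.9% was templated and 43.1% non-templated. It had 36054 counts. miR-486a-3p had 359 counts and miR-486a-5p 29401, with 0.279% and 0.0034% of them templated 5' variants. How reads were divided between these names is not known. No RefSeq sequence was found for miR-486b-3p, so its overlap with miRNAs on the opposite strand could not be checked. miR-3074-2-3p averaged 99.9%.

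The position of miR-3074-2-3p matters for its reading. It lies at chr8:84208839-84208858 on the minus strand, and all 20 of its bases lie opposite miR-24-2-5p at chr8:84208839-84208860 on the plus strand, which reaches 2 bases beyond the 5' end of miR-3074-2-3p. miR-3074-2-3p had 10854 labelled counts and miR-24-2-5p 5237. Whether the counting used strand is not known, so the reads of these 2 miRNAs cannot be told apart. miR-24-2-5p itself had a share of 1.22%. Among the other miRNAs whose RefSeq positions overlap an opposite-strand miRNA by 19 or 20 bases, the highest shares were 0.531% for miR-30e-3p and 0.204% for miR-219a-1-3p.

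miR-5099 was the only miRNA of the 12 whose variants were mostly non-templated. Its share was 74.1 to 82.9% in the labelled libraries, with a median of 80.4%. Total RNA had 84.1% in untreated and 92.8% in 4SU-treated cells, both above every labelled library. Of its 29097 non-templated counts, 99.8% were in the class of mixed added bases.

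miR-365-2-5p and miR-222-5p followed, with mean shares of 37.2 and 37.0%. For miR-365-2-5p the labelled libraries lay between 24.4 and 47.4%, with a median of 37.2%. Its 3010 counts gave libraries that spread widely at each time. miR-222-5p, the less abundant arm of the miR-222 hairpin, ranged from 19.3 to 53.1% with a median of 38.2%. Total RNA was near the upper end for both, at 44.3 and 44.6% for miR-365-2-5p and 46.9 and 49.6% for miR-222-5p in untreated and 4SU-treated cells.

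The paralogs miR-1843b-5p and miR-1843a-5p had medians of 16.6% and 7.41%. Apart from its first base, the annotated miR-1843a-5p lies whole within miR-1843b-5p. How reads that match both were divided is not known. Each had a labelled library at 0, and the highest libraries were at 31.0% and 14.8%, from 2679 and 2539 counts in all. miR-1843a comes from chr12:80391613-80391677, in an intron of Dcaf5 and over Scarna3b, so both hairpins of this pair overlap a small Cajal body RNA gene.

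The remaining miRNAs of the 12 were abundant and their shares were narrow. miR-214-3p, made from the Dnm3os transcript at chr1:162223368-162223477 and typical of mesenchymal cells, had 11.4 to 17.3% (median 13.3%). miR-335-3p, whose hairpin sits within an intron of imprinted Mest at chr6:30741299-30741396, had 9.70 to 16.1% (median 12.1%). miR-423-3p, from an intron of Nsrp1 at chr11:77078064-77078172, had 9.12 to 12.7% (median 11%). miR-29a-3p, a repressor of collagen and other matrix genes whose hairpin lies at chr6:31062660-31062747 outside annotated host genes, had 5.09 to 8.99% (median 6.88%).

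**Figure D1:**
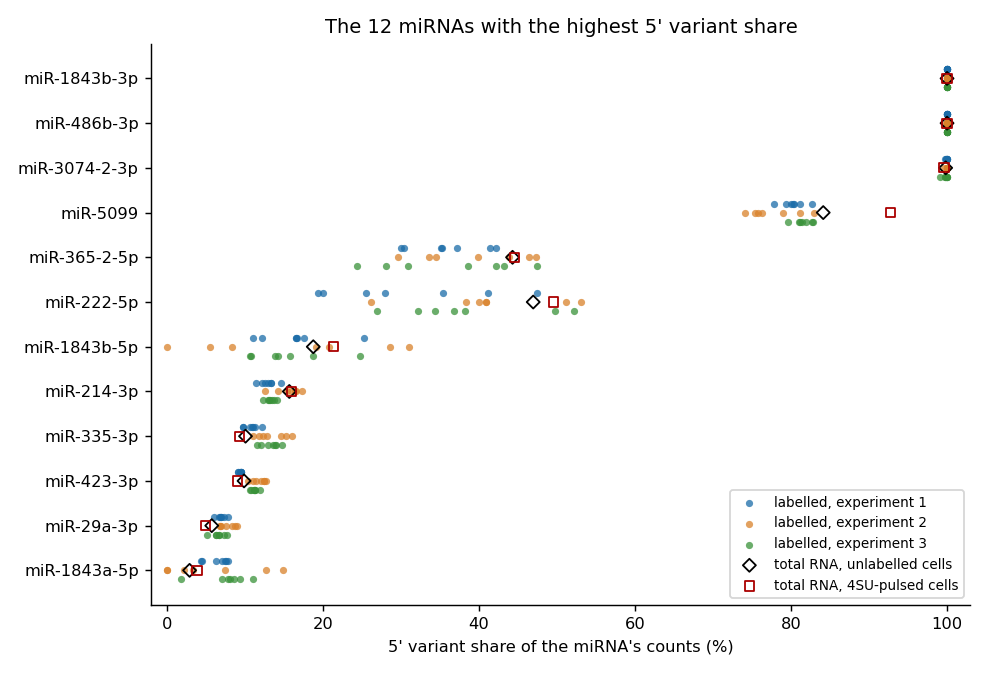
5' variant share (x axis, percent of the miRNA's counts in a library) of the 12 miRNAs with the highest mean share (y axis). Dots are the 21 labelled libraries coloured by experiment, and open symbols are the total RNA libraries, which for miR-5099 lie to the right of all labelled libraries.

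Just below the 12, miR-8112 had 5.51%, miR-466d-3p 5.30% and miR-872-3p 5.18%, against 6.62% for miR-1843a-5p as the last of the 12. At the count minimum, miR-340-5p (1008 counts), miR-212-3p (1010) and miR-8112 (1013) were just inside, and miR-1947-5p (981), miR-129b-3p (977) and miR-1934-5p (976) just outside.

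The chase comparison asked whether the 5' variant share of a miRNA changed while labelled molecules aged. It was tested for 87 rows of 70 miRNAs, 60 templated and 27 non-templated, in edgeR's quasi-likelihood test with the miRNA's own count as offset, so that a slope is the log2 change of the share per hour. The other 246 rows were not tested, 244 because they had under 50 variant counts and 2 because a library held under 5 counts of the miRNA, and 44 of the 333 rows were at 0 in every labelled library. The slope passed an adjusted p of 0.05 in 4 of 87 rows (4.6%), and in all 4 the share fell: miR-222-5p, miR-29a-3p, miR-106b-3p and miR-671-3p, all templated. None rose, and at an unadjusted p of 0.05 there were 9 rows, 8 lower and 1 higher (miR-23b-3p, 0.129 log2 per hour with an adjusted p of 0.379). DESeq2 and limma gave 0 rising rows too, while without the 0 h libraries 1 row rose, that of miR-467c-5p (0.239 log2 per hour, adjusted p = 0.042, 55 variant counts in all). Slopes were negative in 56 of 87 rows, with a median of -0.00788 log2 per hour. Without experiment 3 no row passed, although the slopes of the 4 rows stayed negative: -0.0763 for miR-222-5p, -0.0305 for miR-29a-3p, -0.0654 for miR-106b-3p and -0.119 for miR-671-3p. There were 2 rows that passed when either the 12 h library of experiment 2 or that at 10 h of experiment 3 was left out. The libraries are bulk RNA, so fewer cells with a form and less of it per cell cannot be told apart.

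miR-222-5p is the partner arm of miR-222-3p, which represses the cell cycle inhibitor p27. In experiment 1 the templated 5' share of miR-222-5p was 47.5, 41.0, 35.4, 28.0, 20, 25.5 and 19.3% at 0 to 12 h. In experiment 2 it was 50.8, 52.9, 41.0, 38.3, 39.8, 26.1 and 40.5%. In experiment 3 it was 49.8, 52.1, 36.8, 34.3, 32.1, 38.2 and 27.0%. All 3 libraries at 12 h were below all 3 at 0 h, while experiment 2 turned back up at its last time. The mean went from 49.4% ± 1.74 (SD, n = 3) at 0 h to 28.9% ± 10.7 (SD, n = 3) at 12 h. The share fell by 0.073 on the log2 scale per hour (SE 0.0151, adjusted p = 0.00724). The call was lost without experiment 3 (adjusted p = 0.0766), and without the 0 h and 2 h libraries together (adjusted p = 0.693). In CPM the variant went from 77.0 ± 25.4 to 44.7 ± 30.2, and the other forms of miR-222-5p from 77.9 ± 21.1 to 97.7 ± 24.0 (SD, n = 3). CPM is relative to each library's own total, so here and below it does not give amounts of labelled RNA. Total RNA, at 46.9% (95% exact binomial interval 43.5 to 50.4%) and 49.6% (45.3 to 53.8%), lay at the level of the 0 h libraries. The negative extraction had 5 variant counts of 15.

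The miR-29a-3p share changed less but was measured on many more counts. In experiment 1 it was 7.26, 7.76, 6.77, 6.90, 6.87, 6.67 and 6.01% from 0 to 12 h. The values in experiment 2 were 8.74, 8.95, 8.31, 7.53, 6.80, 6.76 and 6.89%. Those in experiment 3 were 6.72, 7.31, 7.72, 6.65, 6.32, 6.20 and 5.09%. Each experiment ended below its start, although the 12 h library of experiment 2 was above the 0 h library of experiment 3. The share fell by 0.0319 on the log2 scale per hour (SE 0.0073, adjusted p = 0.0111), from 7.57% ± 1.05 at 0 h to 6.00% ± 0.899 at 12 h (SD, n = 3). The adjusted p was 0.0524 without experiment 1, 0.0635 without experiment 3 and 0.079 without the 12 h libraries. Total RNA stood at 5.74% and 4.89%, below the 0 h libraries.

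miR-106b-3p comes from the other arm of the hairpin of miR-106b-5p, in an intron of Mcm7 at chr5:138165737-138165818. Its share in experiment 1 was 3.99, 4.33, 3.89, 3.91, 4.03, 2.93 and 2.53%. Experiment 2 gave 4.56, 6.66, 4.35, 3.38, 3.62, 3.68 and 2.68%. Experiment 3 gave 3.37, 3.92, 5.29, 3.78, 3.78, 2.76 and 3.19%. The highest library of each experiment was at 2 h or 4 h, and all 12 h libraries were below all 0 h libraries. The share fell by 0.0542 on the log2 scale per hour (SE 0.0141, adjusted p = 0.0267), from 3.97% ± 0.596 to 2.80% ± 0.343 (SD, n = 3). This call was lost without any 1 of the experiments (adjusted p = 0.182, 0.193 and 0.0635 without experiments 1, 2 and 3, with slopes of -0.0553, -0.0406 and -0.0654) and without the 12 h libraries together (adjusted p = 0.252). Of single libraries, those at 12 h of experiment 1 (adjusted p = 0.0596 without it) and experiment 2 (0.0661) and that at 10 h of experiment 3 (0.0575) each decided it. The row held 19 to 120 counts per library.

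miR-671-3p lies in an exon of Chpf2 at chr5:24592114-24592211, and its sister arm miR-671-5p is known for directing cleavage of the circular RNA Cdr1as. In experiment 1 its share was 11.5, 5.67, 4.33, 2.27, 3.39, 5.11 and 6.33%. In experiment 2 it was 9.10, 4.09, 2.06, 2.41, 1.68, 0.711 and 0.759%. In experiment 3 it was 8.21, 4.12, 4.75, 4.14, 3.12, 2.39 and 2.03%. The 3 libraries at 0 h were the highest of all 21, and experiment 1 went up again from 6 h while the other experiments ended at or close to their lowest values. The share fell by 0.128 on the log2 scale per hour (SE 0.035, adjusted p = 0.0301), from 9.59% ± 1.68 to 3.04% ± 2.92 (SD, n = 3). The call rested on the 0 h libraries: without them the slope was -0.056 with an adjusted p of 0.922. Leaving out only the 0 h library of experiment 1, 2 or 3 gave an adjusted p of 0.143, 0.101 or 0.0542. The 0 h library of experiment 1 carries another library prefix in the header than the rest of that experiment, and the part of this in the result was not tested. The adjusted p was 0.134 without experiment 2, 0.412 without experiment 3, 0.0661 and 0.0665 without the 12 h libraries of experiments 2 and 3, and 0.0575 when the 10 h library of experiment 3 was left out. The variant went from 69.8 ± 21.8 CPM at 0 h to 20.5 ± 4.66 at 2 h and 9.60 ± 9.97 at 12 h (SD, n = 3). The other forms went from 659 ± 195 to 302 ± 49.7 CPM (SD, n = 3). Relative to the library total both fell, and the variant fell further. Total RNA had 4.17% and 5.18%, below each 0 h library.

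**Figure D2:**
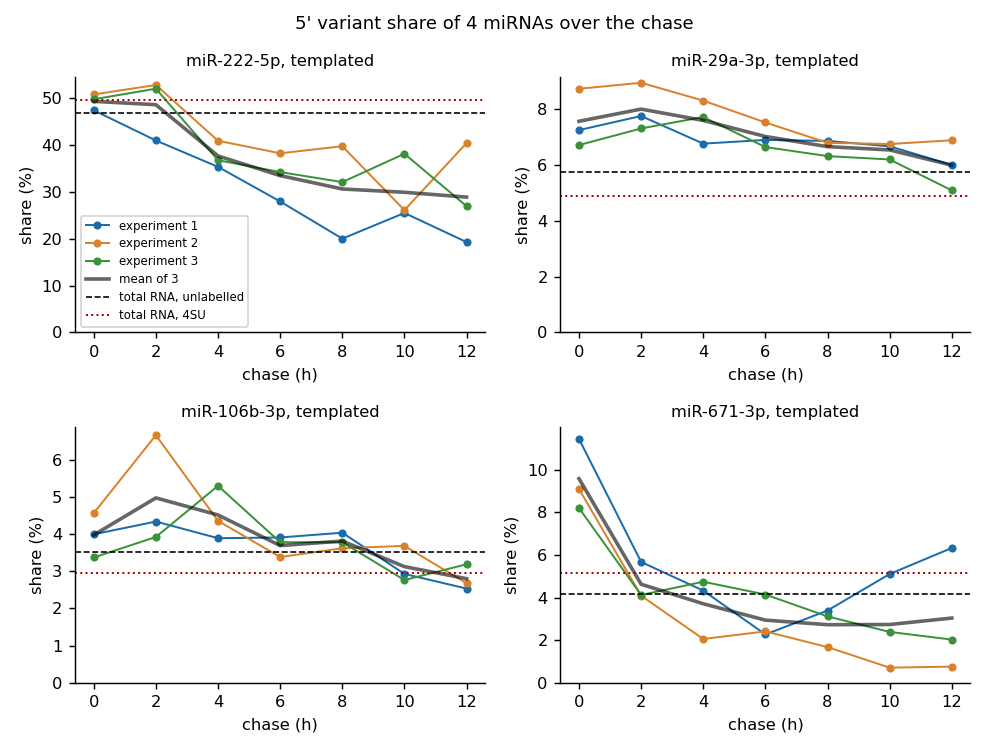
Templated 5' variant share (y axis, percent) against hours of chase (x axis) for the 4 miRNAs whose slope passed. Thin lines are the experiments, the thick line their mean and horizontal lines the total RNA libraries. miR-222-5p started at the level of total RNA and miR-29a-3p and miR-671-3p started above it.

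**Figure D3:**
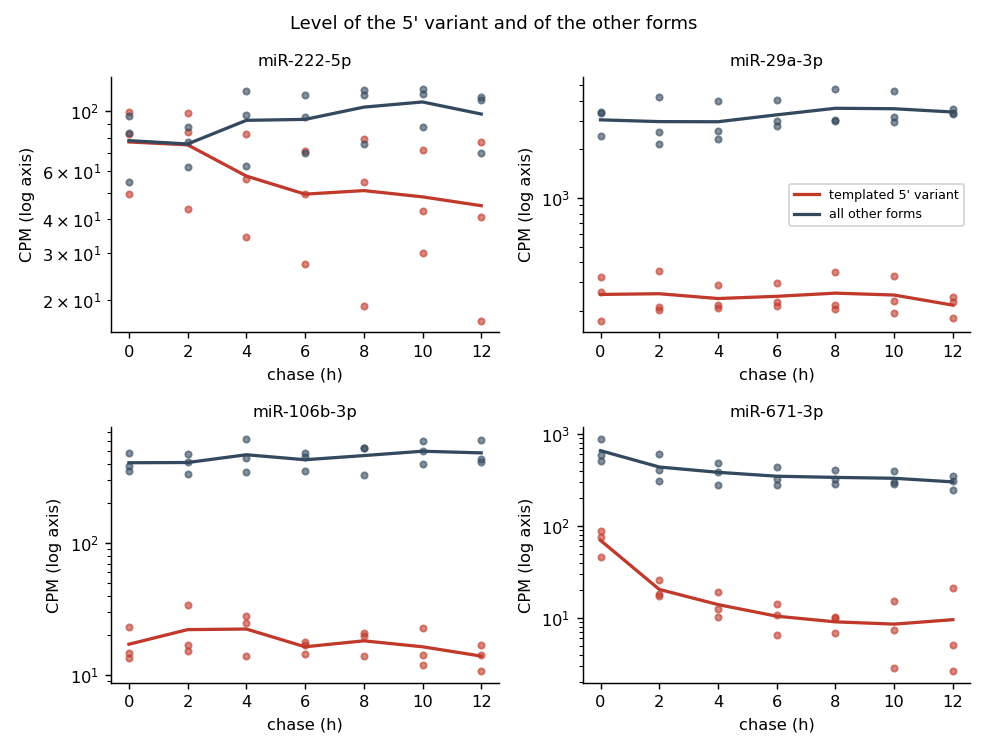
CPM of the templated 5' variant and of all other forms of the same miRNA (y axis, log scale) against hours of chase (x axis). Dots are single libraries of the 3 experiments and lines their means. The other forms of miR-222-5p, miR-29a-3p and miR-106b-3p ended with a higher mean CPM than at 0 h, and those of miR-671-3p with a lower one. CPM is relative to each library's own total.

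Libraries of the same experiment are paired across the times. With the experiment as a block the slope passed in 8 of 87 rows (9.2%), 7 lower (8.05%) and 1 higher (1.15%). The 4 rows above were among them, with adjusted p-values of 6.34e-05 (miR-222-5p), 0.00013 (miR-29a-3p), 0.0179 (miR-106b-3p) and 0.00179 (miR-671-3p). With the block but without the 0 h libraries, a fit chosen after seeing the data, miR-671-3p did not pass (slope -0.0662, adjusted p = 0.339). The other 3 did. The 4 further rows were those of very abundant miRNAs with small shares: miR-27b-3p, miR-21a-5p, miR-143-3p and miR-222-3p.

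miR-27b-3p, a guide miRNA found in most tissues, had a templated share of 0.149% ± 0.0565 at 0 h and 0.0813% ± 0.0157 at 12 h (SD, n = 3). Its libraries differed by experiment, with 0.0726 to 0.162% in experiment 1, 0.0994 to 0.296% in experiment 2 and 0.0601 to 0.114% in experiment 3, and each experiment ended below its start. The slope was -0.0894 log2 per hour without the block (adjusted p = 0.0884) and -0.0808 with it (adjusted p = 0.00013). For miR-21a-5p, an abundant miRNA that represses Pdcd4, the share went from 0.535% ± 0.0221 to 0.438% ± 0.0722 (SD, n = 3), with a slope of -0.0205 under the block (adjusted p = 0.00438) and an adjusted p of 0.141 without it. miR-143-3p, a mesenchymal and smooth muscle miRNA, fell in experiments 1 (0.549 to 0.398%) and 3 (0.576 to 0.380%) and not in experiment 2 (0.750 to 0.809%). Its adjusted p was 0.0135 with the block and 0.645 without it.

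The row that rose under the block was miR-222-3p, the abundant arm of the hairpin that also gives miR-222-5p. Its share at 0 h and 12 h was 0.251 and 0.480% in experiment 1, 0.238 and 0.343% in experiment 3, and 0.205 and 0.179% in experiment 2. The slope under the block was 0.0447 log2 per hour (SE 0.0132, adjusted p = 0.0303), against an adjusted p of 0.580 without the block. The other arm, miR-222-5p, had a slope of the opposite sign. Whether the slopes of the arms differ was not tested.

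**Figure D4:**
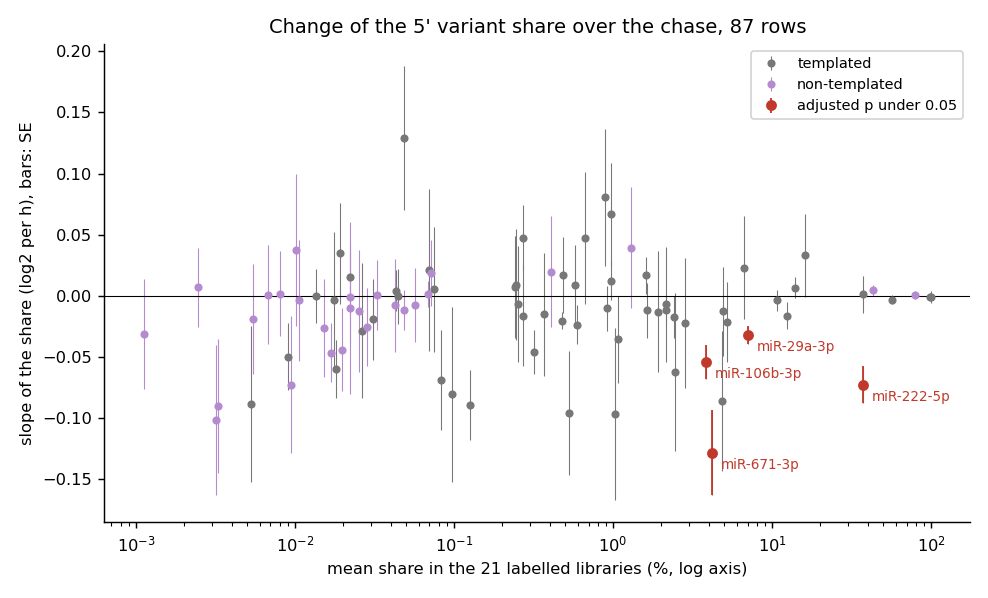
Slope of the share over the chase (y axis, log2 per hour, bars are SE) against the mean share (x axis, percent, log scale) of the 87 rows tested. The 4 rows that passed lie below 0 at mean shares between 3.84 and 37.0%.

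Comparing the end of the chase with its start, 12 h against 0 h, no row passed in edgeR (0 of 87, 0.0%). At an unadjusted p of 0.05 there were 6 rows, all lower, and DESeq2 and limma gave 0. With the experiment as a block 5 of 87 rows (5.75%) passed, all lower. These were miR-222-5p (log2 -0.83, adjusted p = 0.0103), miR-29a-3p (-0.34, 0.0103), miR-27b-3p (-0.80, 0.0139), miR-21a-5p (-0.29, 0.0204) and miR-671-3p (-1.53, 0.0219). The 3 libraries at 12 h were all below the 3 at 0 h in 10 rows (11.5%) and all above in 1 (1.15%). Some of these 10 rows had as few as 51 variant counts in all and labelled libraries at 0. Mean depth was 5122001 miRNA counts at 0 h and 2315928 at 12 h, and its part in these counts of rows was not tested. Summed over the 248 miRNAs, templated variants made up 0.368% ± 0.025 of their counts at 0 h and 0.290% ± 0.0167 at 12 h. Non-templated ones made up 0.0830% ± 0.00362 and 0.0956% ± 0.00331 (SD, n = 3). These sums also depend on the mix of miRNAs in a library, so they do not give changes within a miRNA.

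None of the other miRNAs among the top 12 passed. The slope of miR-365-2-5p was 0.00119 log2 per hour (SE 0.0149, adjusted p = 0.987), with 40.0% ± 1.94 at 0 h and 38.1% ± 8.90 at 12 h (SD, n = 3). That of miR-335-3p was -0.0163 (SE 0.0108, adjusted p = 0.645), and that of miR-423-3p -0.00372 (SE 0.00876, adjusted p = 0.987). For miR-214-3p it was 0.0064 (SE 0.00852, adjusted p = 0.987), and for the non-templated row of miR-5099 0.000551 (SE 0.00321, adjusted p = 0.987). For miR-486b-3p the templated share was 52.6 to 62.9% across the 21 libraries, with a slope of -0.00334 (SE 0.00381, adjusted p = 0.987). The slopes of miR-1843b-5p and miR-1843a-5p were 0.0331 (SE 0.034) and 0.023 (SE 0.042), each with an error as large as the slope or larger.

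The rows with the most variant counts were those of miR-143-3p (45360), miR-423-3p (34770), miR-151-3p (30310), miR-5099 (29097, non-templated), miR-21a-5p (24706), miR-486b-3p (20453, templated), miR-29a-3p (20434) and miR-214-3p (16392). miR-143-3p thus gave 17.0% of all templated variant counts at a mean share of 0.59%. The miR-151-3p share was 1.49 to 2.03% in experiment 1, 2.36 to 2.69% in experiment 2 and 1.99 to 2.18% in experiment 3, with a slope of -0.0115 (SE 0.0115, adjusted p = 0.941). The levels of experiment 2 for miR-151-3p and miR-143-3p lay above all libraries of the other experiments. In 8 of 87 rows (9.2%) 1 experiment lay above or below all libraries of both others. For miR-423-3p it was experiment 1, at 9.05 to 9.42%, against 10.4 to 12.7% and 10.6 to 11.9% in experiments 2 and 3.

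Non-templated 5' bases were mostly C once 2 miRNAs were set aside. Over all 248 miRNAs 60.6% of the 72344 non-templated counts were mixed additions and 35.3% were C. miR-5099 and miR-486b-3p gave 40.2% and 21.6% of these counts, with 99.8% and 86.6% mixed. Without them, a choice made after their values were seen, C made up 91.6% of 27650 counts, mixed additions 4.57%, G 2.13%, A 1.03% and U 0.637%. The C share was 83.0 to 94.8% in single labelled libraries. miR-26a-5p and let-7f-5p, both abundant guide miRNAs, gave 13828 and 5978 non-templated counts, 98.8% and 91.1% of them C.

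For miR-26a-5p the experiments did not overlap at all, the only row of the 87 for which this held. Its non-templated share was 0.649 to 0.883% in experiment 1, 0.119 to 0.176% in experiment 2 and 0.324 to 0.390% in experiment 3. Total RNA of untreated and 4SU-treated cells had 0.0661% and 0.0718%, below every labelled library. The negative extraction, which shares its header code with experiment 1, had 0.914% (122 of 13353 counts, 95% exact binomial interval 0.759 to 1.09%). This value was above the range of experiment 1. For other rows the negative extraction lay outside or within that range. It was outside for the templated rows of miR-143-3p (0.793% against 0.398 to 0.550%) and miR-151-3p (0.796% against 1.49 to 2.03%). It was within for those of miR-29a-3p (7.62% against 6.01 to 7.76%) and miR-335-3p (9.70% against 9.65 to 12.1%). The part of the header code was not tested, and code and experiment cannot be told apart. Over the chase the slope of miR-26a-5p was 0.0198 log2 per hour (SE 0.0457, adjusted p = 0.987). let-7f-5p, at 0.0571 to 0.0838% in the labelled libraries, also had both total RNA libraries below all labelled ones, at 0.0488% each.

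**Figure D5:**
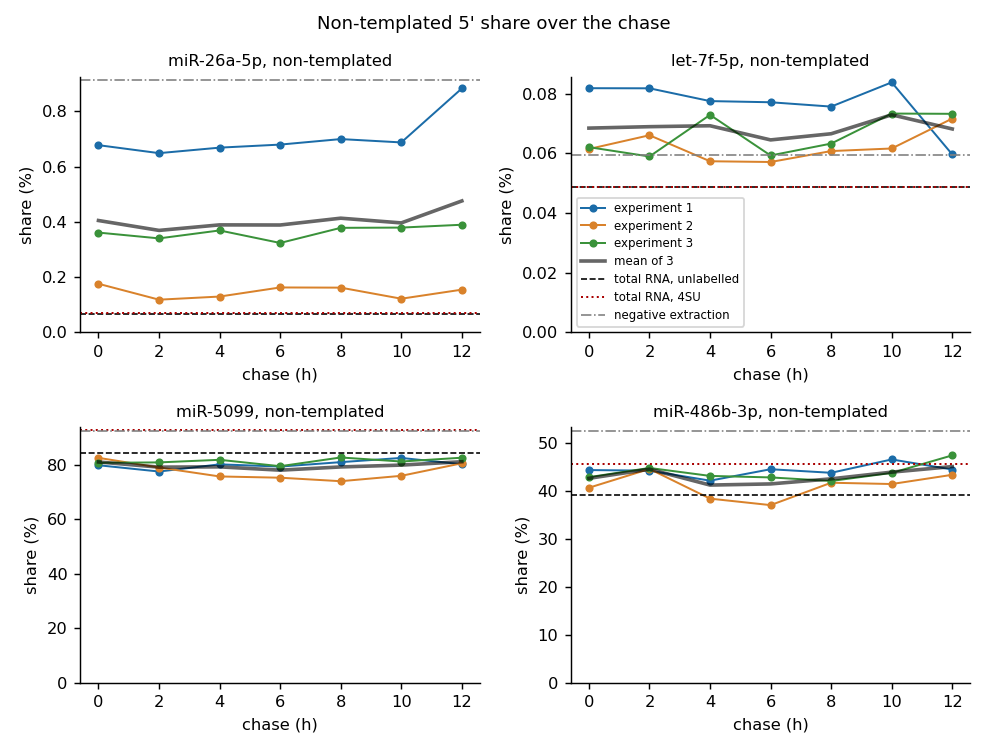
Non-templated 5' share (y axis, percent) against hours of chase (x axis) for miR-26a-5p, let-7f-5p, miR-5099 and miR-486b-3p. Thin lines are experiments, the thick line their mean and horizontal lines the single control libraries. The 3 experiments of miR-26a-5p run apart, and total RNA lies below them.

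Total RNA stood outside the range of all 21 labelled libraries in few rows. Both total RNA libraries were above it in 4 of 87 rows (4.6%) and below it in 2 (2.3%), which were miR-26a-5p and let-7f-5p. The 4 above were miR-5099 and the templated rows of miR-1964-3p, miR-21a-5p and miR-27b-5p. miR-1964-3p had 12.0% (29 of 241 counts) and 9.89% (27 of 273) in total RNA against 0 to 8.04% in labelled libraries. For miR-21a-5p these were 0.581% and 0.623% against 0.355 to 0.557%, and for miR-27b-5p 3.91% and 3.81% against 1.31 to 3.74%. With 1 library of each kind and another header code, no test was made, and code and RNA type cannot be told apart.

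The families of guide miRNAs had median shares between 0.00112% and 0.0857%. All 9 let-7 miRNAs had some, with a median share of 0.0505% against 0.0374% for all 248, and 0 of their 15 tested rows passed, 9 of them with a negative slope, against 4 of 87 rows (4.6%) and 56 with a negative slope over all rows tested. The most abundant, let-7f-5p, let-7i-5p and let-7a-5p, had mean shares of 0.0774, 0.0343 and 0.0761%, while let-7d-5p had 1.03%. let-7g-5p was high as well, with a templated share of 0.535 to 1.46% in the labelled libraries. The 5 miR-30 guides had the lowest of these medians, and none had a row to test. The 8 eligible guides of the miR-17~92 and miR-106b~25 clusters had a median of 0.00883%. Among them were miR-92a-3p with 0.0011%, miR-25-3p with 0.008% and miR-17-5p with 1.09%. This list of guides leaves out miR-106b-3p, whose row passed. Medians were 0.0522% for the 4 miR-181 guides (miR-181a-5p 0.0176%, miR-181c-5p 2.18%), 0.0857% for the 4 eligible miR-15/16 guides (miR-16-5p 0.0478%), 0.0619% for the 4 eligible miR-10/99/100 guides (miR-99b-5p 0.0191%) and 0.0155% for the 2 miR-125 guides. None of the tested rows of these guides passed, where 4 of 87 rows (4.6%) passed over all miRNAs. The rows tested were 3 of the cluster guides, 3 of miR-181, 3 of miR-15/16, 1 of miR-10/99/100 and 2 of miR-125.

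Of 12 listed miRNAs known for alternative 5' ends, 3 had 1000 counts, against 248 of all 1221 names. None of these 3 reached a share of 1%, against 13.3% of the 248. miR-183-5p had 0.0857%, miR-101b-3p 0.011%, and miR-140-3p, with 177963 counts, had no 5' row at all. Its counts were 62.0% templated 3' forms, 35.6% non-templated 3' forms and 1.40% canonical. The alternative 5' end known for this miRNA is a shortened one, and how the isoform classes treat a shortened 5' end is not known. Of 13 miRNAs made without Drosha or without Dicer, 7 were eligible, and miR-320-3p (0.270%), miR-484 (0.0435%) and miR-702-3p (0.074%) had any 5' variant counts. The eligible members with none were the mirtron products miR-877-5p, miR-877-3p, miR-1981-5p and miR-1981-3p.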

How the data were processed

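Small RNA libraries of 3T9 cells were deposited as 1 table of read counts, whole numbers that the authors had not normalised, with 1 column per library and 1 row per miRNA and isoform class. Per the submitters' processing notes CASAVA 1.8.0 was used. The aligner, the annotation, the definitions of the isoform classes, the use of strand and the treatment of reads that match several miRNAs were not given in any source used here. Of 7129 entries 1 duplicate was removed, and the entries by added base summed to the non-templated 5' row in 4632 of 4632 cells. Each column had a sample in the labels, and the 3 experiments are taken as replicates (the series design calls them independent).

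A miRNA's count was the sum of its 8 classes (canonical, trimmed, 3' and 5', templated and non-templated). The members, lists and tests were chosen with earlier results of these data known. Named were the 12 miRNAs with the highest mean share, rows past the slope threshold (at most 8 in each direction), the 8 rows with the most variant counts and the most abundant members of each list. miR-27b-3p, miR-467c-5p, miR-222-3p, miR-23b-3p, miR-1964-3p, miR-27b-5p, miR-26a-5p, let-7f-5p as a non-templated row, let-7d-5p, let-7g-5p, miR-17-5p and miR-181c-5p were named after their values were seen.

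Variant counts were tested in R 4.3.3 with the quasi-likelihood test of edgeR 4.0.16, with the log of the miRNA's count as offset, fitted to 21 labelled libraries with chase hours as a number, or as a factor for 12 h against 0 h. Rows needed 50 variant counts and 5 miRNA counts in each labelled library. p-values were adjusted by Benjamini-Hochberg over the 87 rows at a threshold of 0.05. On simulated data with 40 of 87 slopes changed by 0.1 log2 per hour, the slope test recovered 26 with 1 false call. The simulation held no effect of the experiment, and its slope was larger in size than those of miR-222-5p, miR-29a-3p and miR-106b-3p. These figures therefore do not carry over to smaller slopes or to libraries paired by experiment. Alternatives were DESeq2 1.42.0, limma 3.58.1 on log odds (0.5 counts added), other denominators and filters, thinning, left-out libraries and the experiment as a block.

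The experiment number pairs the libraries, because the labels name the experiment. Every experiment also has 1 code in the second header line, whose meaning is not given. The 0 h library of experiment 1 has another library prefix than the rest of its experiment. Deviations of miRNA levels from the time means correlated at 0.453 to 0.897 in all 63 pairs of libraries from 1 experiment (median 0.748), and deviations of the shares at -0.296 to 0.476 (median 0.13). Host genes are from GENCODE M21 and sequences from RefSeq GRCm38.p6. Exact binomial intervals have 95% confidence and cover counting error only, since reads carry no molecular identifiers. 3 counts corresponded to 0.380 to 2.65 CPM in labelled libraries.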

Additional observations from a re-analysis of the deposited data

How the results depend on the processing

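The slope passed in 4 rows, and in 8 with the replicate block. It passed in 2 rows with the canonical form and the variant alone as denominator (85 rows), 2 with no filter on variant counts (289 rows) and 2 without the 12 h libraries. DESeq2 gave 5, limma 3, a minimum of 500 variant counts 5, both rows of a miRNA added 4, libraries thinned to the lowest depth 3 and the fit without the 0 h libraries 5 (1 higher, 4 lower, with 3 of the 4 rows above among them). Leaving out 1 experiment or 1 library gave 0 to 5 rows. Chosen after seeing the data, the block without the 0 h libraries gave 11 rows (3 higher, 8 lower), the fit without the 0 h and 2 h libraries 1, and the fit without rows over 90% of their miRNA 3. For 12 h against 0 h the count was 0, with 5 under the replicate block, 3 with no filter and 0 to 1 with 1 experiment or library left out (1 without experiment 2). miR-106b-3p lost its call in limma (adjusted p = 0.068), with the canonical denominator (0.15), with no filter (0.0871), thinned (0.817) and without rows over 90% of their miRNA (0.0502). miR-29a-3p lost it with the canonical denominator (0.0734) and miR-671-3p with no filter (0.0572). The replicate block changed no other call than those given.

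Slopes near 0 that had not passed changed sign: miR-335-3p to 0.0023 and miR-5099 to -0.000186 with the canonical denominator, miR-365-2-5p to -0.000313 with the replicate block, -0.00179 thinned and -0.00136 without the 12 h libraries, miR-5099 to -0.00172 without the 12 h libraries, and miR-1843a-5p to -0.0423 without the 0 h and 2 h libraries. With 1 experiment or library left out, slopes ranged from -0.018 to 0.015 for miR-365-2-5p, -0.0011 to 0.00304 for miR-5099, -0.00398 to 0.0605 for miR-1843a-5p and -0.00218 to 0.0138 for miR-214-3p. With the canonical denominator 9 of the 12 highest mean shares moved, for example to 52.2% for miR-222-5p and 23.9% for miR-214-3p. With a minimum of 10000 counts in place of 1000, miR-872-3p, miR-671-3p, miR-106b-3p and miR-27b-5p enter the 12 highest. The cause of these changes was not tested, and rows with few variant counts are limited by depth.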

Other observations

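Below the count minimum, 200 miRNAs had 100 to 999 labelled counts, and 27 of them had a pooled 5' variant share above 10%. Both miR-101c and miR-101a-3p are on the list of miRNAs known for alternative 5' ends. miR-101c had 477 of 478 counts in 5' rows (99.8%, 95% exact binomial interval 98.8 to 100.0%). miR-101a-3p had 412 of 626 (65.8%, 62.0 to 69.5%), and 381 of 860 in total RNA. How reads were divided between miR-101c and miR-101a-3p is not known. miR-183-3p, the partner arm of miR-183-5p, had 176 of 362 (48.6%, 43.4 to 53.9%), and miR-425-3p 238 of 727 (32.7%, 29.3 to 36.3%). miR-5113 had 185 of 188 and miR-709 88 of 108. These miRNAs were chosen by these values, so the values are given as a description.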
